A study of Caenorhabditis elegans with 2 samples.

Results

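Molecular chaperones were described as sites of NHR-41, a nuclear hormone receptor of Caenorhabditis elegans, in L4 larvae, the stage that precedes the adult. The 68 chaperone genes were taken by name from the 19973 protein-coding genes of the nuclear chromosomes (Ensembl release 115, assembly WBcel235). They comprised every gene named hsp-, dnj-, cct- or pfd-, with the Hsp70 pair F44E5.4 and F44E5.5 and the small heat shock gene sip-1 added. By family they were 8 Hsp70 and Hsp110 genes, 2 Hsp90 genes, 1 Hsp60 gene, 14 small heat shock genes, 29 J-domain genes, 8 CCT genes and 6 prefoldin genes. Genes were taken by name, but the set was chosen with earlier results of these data known.

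The animals were of strain RW12221, with the CRISPR-made allele st12221, which inserts a TY1, EGFP and 3xFLAG tag at nhr-41 on chromosome IV. They came from bleached cultures synchronised as starved L1 larvae, and were collected as whole L4 larvae at 48.5 h. Chromatin immunoprecipitation followed by sequencing (ChIP-seq) used an antibody against GFP, and there was 1 group of 2 biological replicates. No peak list from untagged animals, from input or from heat-shocked animals was used, so all results set chaperone genes or sites beside the other genes or sites of the same libraries. Whole animals were used, and the tissues in which a site was bound cannot be told apart.

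Chaperones bind proteins that are unfolded or still folding. Hsp70 binds exposed hydrophobic stretches and releases them in a cycle driven by ATP, J-domain proteins deliver clients and start ATP hydrolysis, and Hsp110 promotes nucleotide exchange. Hsp90 acts on clients that are closer to their folded state. The mitochondrial Hsp60 and the cytosolic CCT ring enclose a folding protein in a chamber, prefoldin hands actin and tubulin to CCT, and small heat shock proteins hold unfolded proteins without ATP. In the nematode, the heat shock factor HSF-1 binds repeated short heat shock units in many of these promoters, and separate stress responses serve the endoplasmic reticulum (ER) and the mitochondria. NHR-41 is related to the vertebrate orphan receptors TR2 and TR4, which recognise direct repeats of the half-site AGGTCA.

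NHR-41 peaks passed the authors' threshold in the promoter windows of 10 of the 68 chaperone genes, at 9 sites. The sequences under 6 of these sites are shown because they include all 5 with heat shock units near the summit and the second strongest site, hsp-3, without them, together with the intergenic sequence of an hsp-16 pair that had such units and no peak past the threshold. All were read 5′ to 3′ from the RefSeq sequence of WBcel235, which is the build ce11 of the peak lists. Capitals mark heat shock units, which were searched in the 2-unit forms GAANNTTC and TTCNNGAA and in a longer 3-unit form that joins the same units once more. In F44E5.4 and F44E5.5, hsp-60 and the hsp-16 pair the capitals are 3-unit matches, and in dnj-13, cct-8 and hsp-90 they are 2-unit matches. In hsp-3, which had neither form, they mark the ER stress motif TGACGTG and a CCAAT box, which reads ATTGG on the strand shown.
F44E5.4 and F44E5.5, whole peak, chrII:11759328-11759611, forward strand: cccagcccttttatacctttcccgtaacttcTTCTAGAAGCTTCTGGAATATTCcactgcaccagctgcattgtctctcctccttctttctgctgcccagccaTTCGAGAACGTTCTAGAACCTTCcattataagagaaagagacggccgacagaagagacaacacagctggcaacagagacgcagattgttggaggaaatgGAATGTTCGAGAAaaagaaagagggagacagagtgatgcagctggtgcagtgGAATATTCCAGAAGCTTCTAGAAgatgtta
hsp-60, chrIII:1619036-1619186, forward strand: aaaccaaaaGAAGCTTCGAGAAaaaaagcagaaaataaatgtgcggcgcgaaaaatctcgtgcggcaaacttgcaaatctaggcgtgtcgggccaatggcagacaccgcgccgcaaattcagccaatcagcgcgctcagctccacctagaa
hsp-90, chrV:14685700-14685850, forward strand: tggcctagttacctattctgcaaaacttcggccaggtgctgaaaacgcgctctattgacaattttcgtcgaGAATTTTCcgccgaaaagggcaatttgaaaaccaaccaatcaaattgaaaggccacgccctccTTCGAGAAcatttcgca
dnj-13, chrII:11545398-11545548, forward strand: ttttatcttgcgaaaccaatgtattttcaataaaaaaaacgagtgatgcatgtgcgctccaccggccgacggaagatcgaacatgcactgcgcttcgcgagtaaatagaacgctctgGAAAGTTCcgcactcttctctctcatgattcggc
cct-8, chrIV:1094295-1094445, reverse strand: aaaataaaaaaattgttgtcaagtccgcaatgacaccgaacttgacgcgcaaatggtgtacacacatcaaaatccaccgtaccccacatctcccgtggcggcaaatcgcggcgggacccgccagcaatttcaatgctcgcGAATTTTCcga
hsp-3, chrX:6092106-6092256, reverse strand: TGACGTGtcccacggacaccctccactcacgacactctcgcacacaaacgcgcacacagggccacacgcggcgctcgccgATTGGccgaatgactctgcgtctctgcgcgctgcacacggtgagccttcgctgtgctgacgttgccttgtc
hsp-16.2 and hsp-16.41, whole intergenic region, chrV:1804958-1805177, forward strand: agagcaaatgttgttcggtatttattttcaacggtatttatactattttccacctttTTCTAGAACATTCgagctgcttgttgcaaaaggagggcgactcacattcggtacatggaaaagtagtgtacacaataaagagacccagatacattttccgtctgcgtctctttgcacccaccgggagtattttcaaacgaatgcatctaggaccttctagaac
The peak between F44E5.4 and F44E5.5 held 4 separate runs of 3-unit elements in 284 bp, 3 of them 23 bp long and 1 of 13 bp. The 5 other site windows reach 75 bp to each side of the summit and are 151 bp long. The hsp-16.2 and hsp-16.41 intergenic region is 220 bp long and holds 1 complete 3-unit element. A second 3-unit run begins 224 bp upstream of hsp-16.2 on one side and 9 bp upstream of hsp-16.41 on the other. It runs past the right end of the region, so the part shown there was left in lower case.

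Against all genes, peaks past the threshold were found at a larger share of chaperone promoters. A gene was counted as bound when a summit lay from 1000 bp upstream to 200 bp downstream of the 5′ end of any of its protein-coding transcripts. In the conservative list, which the authors made from both replicates and which held 1069 peaks, 10 of 68 chaperone genes were bound, 14.7% (95% interval 7.28 to 25.4), against 535 of all 19973 genes, 2.68%. The thresholded list of replicate 1 alone gave 6 of 68 chaperone genes, 8.82% (3.31 to 18.2), against 0.871% of all genes. That of replicate 2 alone gave 8 of 68, 11.8% (5.22 to 21.9), against 1.81%. In each of the 3 lists the share among chaperone genes was above that among all genes. Intervals are exact binomial ones and cover counting error over genes only. They do not cover the choice of the gene set, which was made with earlier results of these data known. Several of the genes share a peak or a family history, so they are not independent.

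Promoter peaks were also counted without the threshold. The authors deposited a ranked list of 48276 peaks made from both replicates. Its irreproducible discovery rate (IDR) score is capped at 1000 and is high where a peak's rank is stable between replicates. Of these peaks, 28441 could be traced to replicate 1's own ranked list and 29471 to that of replicate 2. A trace required the same coordinates and signal, so a peak without one is not shown to be absent from that replicate. The strongest promoter peaks of cct-2, dnj-4, dnj-30, pfd-2 and pfd-5 were traced to neither. The ranked list still gave each of them a signal in both of its 2 peak sets, from 8.94 to 14.2. The conservative list went down to a score of 830. A ranked peak of any score lay in the promoter window of 51 of 68 chaperone genes, 75% (63.0 to 84.7), against 48.9% of all genes, and 17 chaperone genes had none. Both counts include the genes past the threshold. With a score of at least 540 the count was 13 of 68, 19.1% (10.6 to 30.5), against 4.5% of all genes. The signal of a peak is the value that the authors' peak caller gave, on a scale with its reference not given in the sources used here. Among genes with a ranked promoter peak, the strongest one had a median signal of 38.2 in the 51 chaperone genes (quartiles 27.5 and 63.6), against 29.9 in all 9774 genes (23.5 and 39.1). The upper quartile was higher in the chaperone genes, the ranges between quartiles overlap, and the highest signal was 219.5 in chaperone genes, against 318.1 in all genes.

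By family the counts rest on few genes, and differences between families were not tested. The shares over all genes to set beside them are the 2.68% bound and the 48.9% with a ranked peak. Of the Hsp70 and Hsp110 genes, 4 of 8 were in the conservative list, 50% (15.7 to 84.3), with 2 of the 4 sharing 1 peak, and all 8 had a ranked peak, with signals of 29.3 to 219.5 and a median of 87.8. Of the Hsp90 genes 1 of 2 was bound, and the single Hsp60 gene was bound. Among J-domain genes 3 of 29 were bound, 10.3% (2.19 to 27.4), and 22 had a ranked peak, with a median signal of 38.5. Among CCT genes 1 of 8 was bound, 12.5% (0.316 to 52.65), and 6 had a ranked peak, with a median signal of 28.4. None of the 6 prefoldin genes was bound, with an interval up to 45.9%, and 5 had a ranked peak with a median of 27.9. None of the 14 small heat shock genes was bound, with an interval up to 23.2%, and the 7 with a ranked peak, 50% (23.04 to 77.0), had signals of 7.99 to 43.4. The 7.99 is that of hsp-17, whose signals in the replicates' own lists were higher, 20.06 and 23.72. With a promoter of 2000 bp hsp-16.1 and hsp-16.11 counted as bound, and hsp-16.1 did where any part of a peak could overlap the window. The intervals of the J-domain, CCT, prefoldin and small heat shock families overlap each other, and each includes the 2.68% of all genes. The plot of signal by family shows F44E5.4, F44E5.5 and hsp-3 at the top of the scale and the small heat shock genes near its foot.

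**Figure D1:**
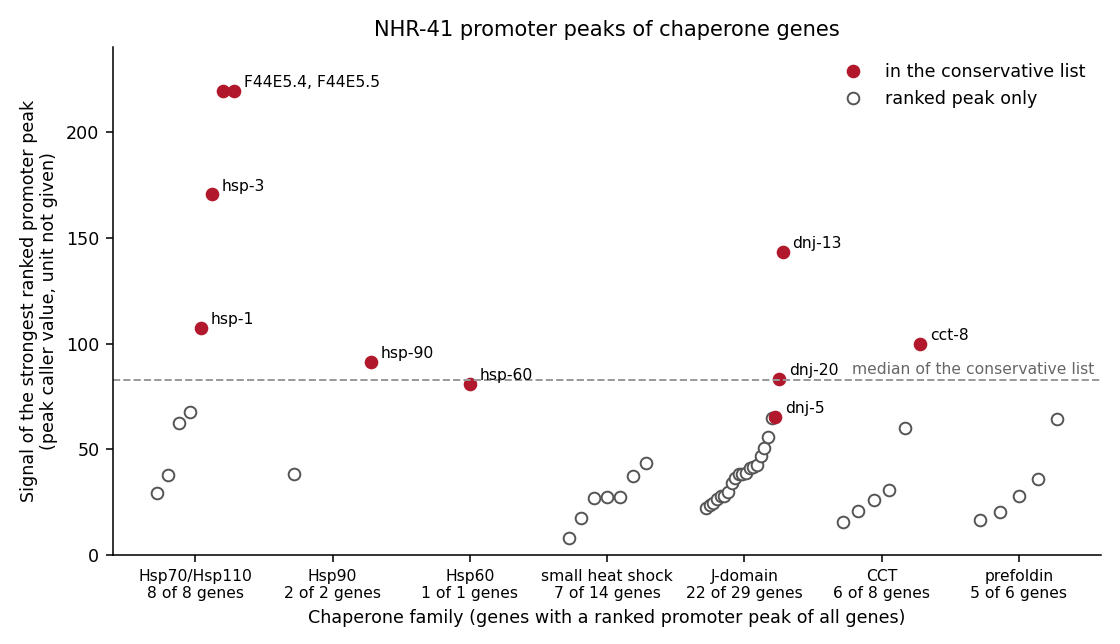
Signal of the strongest ranked NHR-41 promoter peak of each chaperone gene (vertical axis, the authors' peak caller value, unit not given), by family (horizontal axis), with filled points for genes in the conservative list and open points for genes with a ranked peak only; the dashed line is the conservative list's median signal, 82.8. F44E5.4 and F44E5.5, which share a peak, stand highest at 219.5, followed by hsp-3 at 170.5 and dnj-13 at 143.4, and no small heat shock or prefoldin gene has a filled point.

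Cytosolic Hsp70 genes carried the strongest chaperone site. F44E5.4 and F44E5.5, divergent Hsp70 genes that are induced by heat, shared a peak at chrII:11759328-11759611 with a signal of 219.5, rank 14 of the 1069 conservative peaks. Its signal was 105.5 in replicate 1 and 114.9 in replicate 2, a mean of 110.2 ± 6.65 (SD, n = 2), and it passed the threshold in both replicates' own lists. Replicate signals come from each replicate's own ranked list, which may be scaled separately, and 2 replicates of 1 group allow no test. Where a peak is said to be in a replicate's list or not, the thresholded list is meant. The summit lay between the genes, 159 bp upstream of F44E5.4 and 192 bp upstream of F44E5.5. Chromatin fragments were 200 to 800 bp long by the labels, so the peak cannot be divided between the pair.

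hsp-1, the constitutive cytosolic Hsc70, had a peak at chrIV:17278390-17278673, 427 bp upstream, with a signal of 107.6. The replicates gave 58.2 and 48.6, a mean of 53.4 ± 6.83 (SD, n = 2), and both lists held the peak. The annotated noncoding RNA gene F26D10.23 lies within 500 bp of that summit. The remaining cytosolic members were not in the conservative list. hsp-70, another heat-induced gene, reached a signal of 29.3 and a score of 68 at 719 bp upstream. hsp-110, the nucleotide exchange factor, stood at 67.9 with a score of 57, from 12.6 in replicate 1 and 52.2 in replicate 2. The hsp-110 promoter peak was in the list of replicate 2 and in the other thresholded list of both replicates, so the replicates differed at that gene.

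The BiP genes of the ER, hsp-3 and hsp-4, had unlike values. hsp-3 had a peak at chrX:6092039-6092322 with a signal of 170.5, rank 34, with its summit 57 bp upstream of the gene. The replicates gave 75.4 and 94.8, a mean of 85.1 ± 13.7 (SD, n = 2), and both lists held it. hsp-4, the paralogue that is used as a reporter of ER stress because it is strongly induced, had a signal of 37.7 and a score of 146 at 605 bp upstream, from 17.3 in replicate 1 and 17.5 in replicate 2. Both replicates of hsp-4 lay below both replicates of hsp-3. The mitochondrial Hsp70 gene hsp-6 had its highest-scoring peak 195 bp downstream of its 5′ end, with a signal of 62.7 and a score of 694, from 25.96 and 31.55 in replicates 1 and 2.

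Hsp90 and Hsp60 sites each passed the threshold in 1 replicate only. hsp-90, the cytosolic Hsp90 gene also known as daf-21, had a peak at chrV:14685633-14685916 with a signal of 91.3. Its replicates gave 60.9 and 33.4, a mean of 47.1 ± 19.4 (SD, n = 2), and the peak was in the list of replicate 1 and not in that of replicate 2. The summit lay in an intron of the longer hsp-90 transcript, 385 bp upstream of a shorter one, and 290 bp upstream of C47E8.4, a FAM50 homologue on the other strand. hsp-60, the mitochondrial chaperonin gene, had a peak at chrIII:1618969-1619252 with a signal of 81.0. Its replicates gave 33.6 and 51.9, a mean of 42.75 ± 12.9 (SD, n = 2), and only the list of replicate 2 held it.

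The hsp-60 summit was shared with the gene of its partner. It lay 631 bp upstream of hsp-60 and 182 bp upstream of the divergent Y22D7AL.10, which RefSeq annotates as the mitochondrial Hsp10, the lid of the Hsp60 chamber. Y22D7AL.10 has no chaperone name in the annotation and is not among the 68 genes. In mammals the Hsp60 and Hsp10 genes are likewise divergent neighbours. Of the Hsp90 family, hsp-75, a mitochondrial Hsp90, was not in the conservative list and had a signal of 38.6 with a score of 59.

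Of 29 J-domain genes the strongest was dnj-13, a class B J-domain protein that works with HSP-1 and HSP-110 to dissolve protein aggregates. Its peak at chrII:11545331-11545614 had a signal of 143.4, rank 65, with 79.2 in replicate 1 and 58.0 in replicate 2, a mean of 68.6 ± 15.05 (SD, n = 2), and stood in both lists. The summit lay 228 bp upstream of dnj-13, inside an intron of dhgd-1, which encodes a mitochondrial dehydrogenase, and also 645 bp upstream of the F-box gene F54D5.9. A noncoding RNA gene, F54D5.22, is annotated within 500 bp. The proteins known to act together in aggregate removal thus had unlike lists, with hsp-1 and dnj-13 in both replicates' lists and hsp-110 in 1 of them.

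dnj-20, the counterpart of the ER co-chaperone of BiP (DNAJB11 in mammals), had a peak of 83.4 at chrII:9619396-9619679, with 34.95 and 43.7 in replicates 1 and 2, a mean of 39.3 ± 6.20 (SD, n = 2). Its summit lay in an intron of its longer transcript, 368 bp upstream of a shorter one. dnj-5, also a J-domain gene, had a peak of 65.2 at chrII:6858932-6859215, with 33.4 and 29.8, a mean of 31.6 ± 2.50 (SD, n = 2), at 773 bp upstream. Neither peak passed the threshold in either replicate's own list, so both passed it only in the lists made from both replicates. In the ranked lists of replicates 1 and 2 their scores were 480 and 786 for dnj-20, and 350 and 338 for dnj-5. dnj-5 stood lowest of the 9 sites in signal, and its score of 836 was the nearest to the threshold.

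Genes just under the threshold were cct-1 with a score of 720, dnj-14 with 716, hsp-6 with 694, dnj-28 with 497 and dnj-29 with 407. The subunit gene cct-1 had a signal of 60.1, from 28.3 and 29.9 in replicates 1 and 2. dnj-14, the counterpart of the synaptic cysteine string protein, had 55.8, from 24.9 and 35.4. The cct-1 replicates were close to each other and those of dnj-14 less so. Both genes lay below every bound chaperone site in signal, the lowest of which was dnj-5 at 65.2. The signals of dnj-28 and dnj-29 were 64.85 and 50.8, and the unbound J-domain genes with a ranked peak spanned 22.2 to 64.85. The J-domain genes dnj-7, dnj-12, dnj-15, dnj-17, dnj-22, dnj-26 and dnj-27 had no ranked promoter peak, dnj-27 being an ER protein with thioredoxin domains.

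The CCT ring is built from 8 different subunits in fixed places, and only cct-8, the theta subunit gene, was in the conservative list. Its peak at chrIV:1094228-1094511 had a signal of 99.95, with 45.3 in replicate 1 and 52.1 in replicate 2, a mean of 48.7 ± 4.81 (SD, n = 2). The list of replicate 2 held it, and in replicate 1 its score was 608. The summit was nearer to Y55F3AR.2, a gene for a thioredoxin-domain protein on the other strand, at 171 bp, than to cct-8, at 450 bp, and the noncoding RNA gene Y55F3AR.4 lies within 500 bp. cct-7, cct-3, cct-2 and cct-6 had signals of 15.9 to 31.0, and cct-4 and cct-5 had no ranked promoter peak. The subunits of 1 complex were therefore unlike each other in these lists.

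Prefoldin genes had low values apart from pfd-1. The pfd-1 peak reached 64.5 with a score of 240, from 41.5 in replicate 1 and 18.9 in replicate 2, and was in neither list. pfd-2, pfd-3, pfd-4 and pfd-5 had signals of 16.6 to 36.0, and pfd-6 had no ranked peak. The pfd-4 peak is also that of the divergent J-domain gene dnj-2.

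Small heat shock genes had no conservative summit within 1000 bp upstream. The highest of them was hsp-43, a small heat shock protein gene, with a signal of 43.4 and a score of 388, from 20.7 and 25.8 in replicates 1 and 2. The heat-inducible reporter genes hsp-16.2 and hsp-16.41 are divergent and shared a ranked peak of 27.5 with a score of 102. Those of hsp-25, sip-1, hsp-12.2 and hsp-17 had signals of 7.99 to 37.6. The lowest value, that of hsp-17, had a score of 327 and replicate signals of 20.06 and 23.72, both above the combined one. hsp-16.1, hsp-16.11, hsp-16.48, hsp-16.49, hsp-12.1, hsp-12.3 and hsp-12.6 had no ranked promoter peak. The hsp-16.1, hsp-16.11, hsp-16.48 and hsp-16.49 genes stand in an inverted duplication, and 93.1% to 100% of the 50-base words of their promoter windows occur more than once in the genome, so that reads of that length could not be placed at 1 site. The part of these repeats in the absence of peaks was not tested. No such word occurs in the promoter windows of hsp-16.2 and hsp-16.41, nor in any of the 9 bound chaperone peaks. In the windows of F44E5.4 and F44E5.5 73.9% of the words recur, and none of those in their shared peak does.

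The replicates were unequal at these sites, in both directions. Replicate 1 exceeded replicate 2 at 4 of the 9 chaperone sites, 44.4% (13.7 to 78.8), against 80 of 444 other conservative promoter sites, 18.02% (14.6 to 21.9). Those 4 were dnj-13, hsp-1, hsp-90 and dnj-5. In the lists of both replicates stood 4 of 9 chaperone sites, 44.4% (13.7 to 78.8), against 108 of 453 other promoter sites, 23.8% (20.0 to 28.0). In both pairs the interval of the chaperone sites spans that of the other sites, and the differences were not tested. Median signals were 58.2 at chaperone sites against 36.2 at other promoter sites in replicate 1, and 51.9 against 47.3 in replicate 2. The plot of both replicates by site shows the widest gap within the bound sites at hsp-90, and a wider one at hsp-110, which was not bound in the conservative list.

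**Figure D2:**
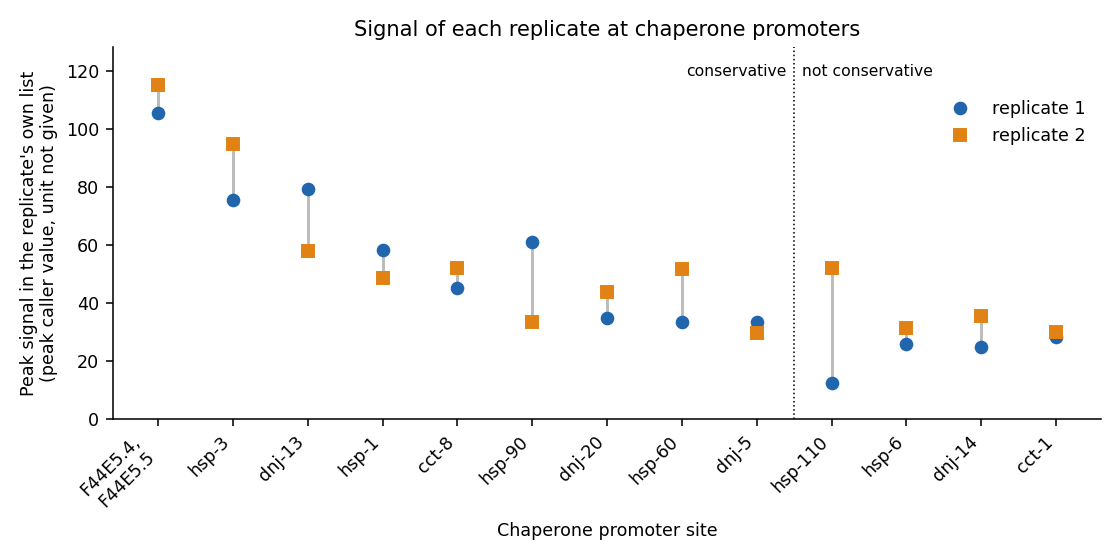
Signal of the NHR-41 peak at each chaperone promoter site (vertical axis, peak caller value in each replicate's own list, unit not given), with 1 point for each replicate joined by a line; the 9 conservative sites stand left of the dotted line in falling order of combined signal, and 4 sites outside the conservative list stand right of it. Replicate 1 is the higher at dnj-13, hsp-1, hsp-90 and dnj-5, and at hsp-110 the replicates stand at 12.6 and 52.2.

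The 9 chaperone sites were chosen for lying in a promoter window, so their position is set beside that of other sites chosen in the same way. All 9 summits lay upstream of the nearest 5′ end (interval from 66.4%), against 412 of 453 other conservative promoter summits, 91.0%. Within 500 bp of it lay 8 of 9, 88.9% (51.75 to 99.7), against 332 of 453, 73.3%, a share inside the interval of the chaperone sites. The median distance was 228 bp (57 to 773), against 274 bp. A summit stood in the windows of at least 2 protein-coding genes at 5 of 9 chaperone sites, 55.6% (21.2 to 86.3), against 92 of 453 other sites, 20.3% (16.7 to 24.3). These were the divergent pairs at F44E5.4, cct-8, hsp-90 and hsp-60, and the site shared by dnj-13 and F54D5.9. GC content of the windows was 38.4% to 64.2% with a median of 49.7%, against a median of 47.0%. None of the 9 lay within 500 bp of a tRNA, snRNA or snoRNA gene (interval up to 33.6%), against 90 of 453 other sites, 19.9%.

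Heat shock units were found within 75 bp of 5 of the 9 summits. Motifs were searched on both strands in the 151-bp windows around summits, and the same was done at 453 other conservative promoter sites and at 14124 ranked promoter sites, which include the conservative ones. Either 2-unit form stood at 5 of 9 chaperone sites, 55.6%, against 10.6% of other conservative and 16.6% of ranked promoter sites. GAANNTTC was at 5 sites, against 5.96% and 9.35%, and TTCNNGAA at 3 sites, against 6.84% and 9.04%. The 3-unit element, which contains both forms and so overlaps them, was at the F44E5.4 and F44E5.5 site and at hsp-60, 2 of 9, against 1.99% and 0.942%. With windows of 50 bp to each side, 3 of the 9 sites held a 2-unit form.

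In position the units varied. At F44E5.4 and F44E5.5 a 3-unit run stood 39 to 17 bp left of the summit and another 60 to 72 bp right of it. At hsp-90 a GAANNTTC covered the summit itself, from 4 bp left to 3 bp right, and a TTCNNGAA began 59 bp right of it. The units of dnj-13 stood 42 to 49 bp right of the summit, those of cct-8 at 65 to 72 bp and those of hsp-60 at 54 to 66 bp left of it, left and right being those of the forward strand. Only hsp-90 among the 5 sites had a unit at the summit. hsp-1, hsp-3, dnj-20 and dnj-5 had none within 75 bp.

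The half-site AGGTCA was in none of the 9 windows, against 11.7% of other conservative and 4.77% of ranked promoter sites, and its extended form AAGGTCA was in none, against 4.42% of other conservative promoter sites. The GATA-type motif TGATAA was at hsp-1 alone, over the summit, 1 of 9 against 24.3%. TGACGTG was at hsp-3 alone, 69 to 75 bp from the summit, 1 of 9 against 2.43%. TATAAA was at none, against 8.39%, and the B box of tRNA genes, GTTCNANNC, at none, against 16.8%. CCAAT, added after these sequences had been seen, was at 5 of 9 chaperone sites, 55.6%, against 19.65% of other conservative and 27.9% of ranked promoter sites, namely hsp-3, dnj-13, hsp-90, dnj-20 and hsp-60. A match is a description of these letters, and its absence says nothing of what binds there. The plot of motif shares sets the 9 sites beside the other promoter sites.

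**Figure D3:**
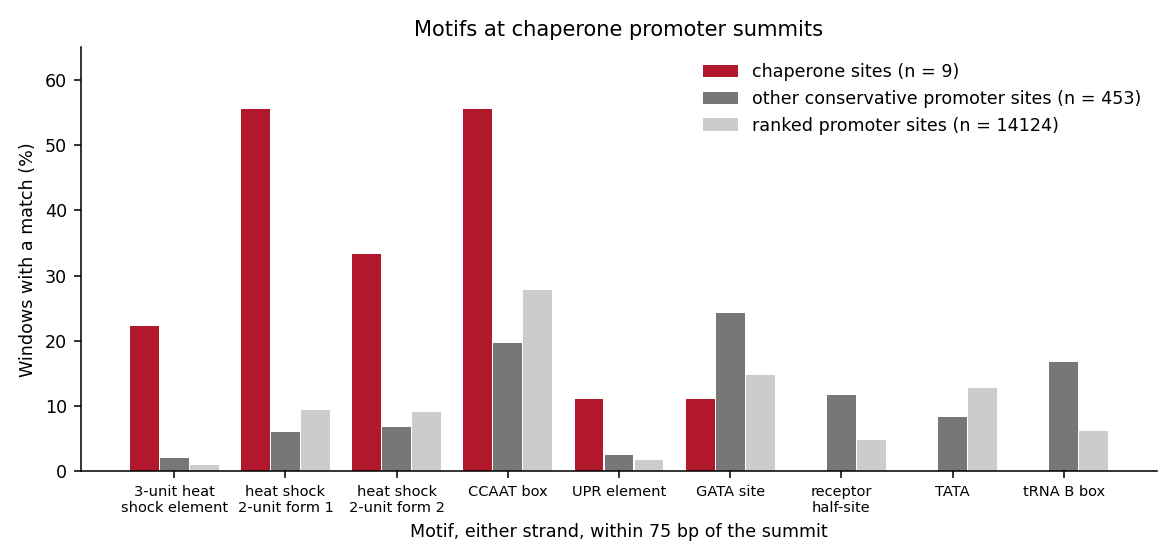
Share of 151-bp summit windows with at least 1 match to each motif (vertical axis, percent; horizontal axis, motif on either strand) for the 9 chaperone sites, 453 other conservative promoter sites and 14124 ranked promoter sites; form 1 is GAANNTTC and form 2 is TTCNNGAA. The chaperone bars are highest for the heat shock forms, 55.6% and 33.3%, and CCAAT, 55.6%, and are at 0 for the receptor half-site, TATA and B box, with 1 site being 11.1%.

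Heat shock elements and NHR-41 peaks did not coincide across the whole family. A 3-unit element stood in the promoter window of the gene's outermost 5′ end in 18 of 68 chaperone genes, 26.5%, against 1534 of 19973 genes, 7.68%. By family this was 6 of 8 Hsp70 and Hsp110 genes, 6 of 14 small heat shock genes, 3 of 29 J-domain genes, 0 of 8 CCT genes and 1 of 6 prefoldin genes, and hsp-90 and hsp-60. Of the 18 genes with an element 6 were bound, 33.3% (13.3 to 59.0), against 4 of the 50 without one, 8.0% (2.22 to 19.2), and F44E5.4 and F44E5.5 are 2 of the 6 by 1 shared peak. The windows are not alike, as a gene counted as bound by a summit at any of its transcripts' 5′ ends. With the outermost 5′ end alone, hsp-90, which has an element, and dnj-20, which has none, were not bound. Over all genes the shares were 48 of 1534 with an element, 3.13% (2.32 to 4.13), against 487 of 18439 without, 2.64% (2.41 to 2.88). The 12 chaperone genes with an element and no conservative promoter summit were hsp-6, hsp-70, hsp-110, dnj-12, dnj-24, pfd-5 and the 6 hsp-16 genes of the list. In the promoter windows of hsp-16.1, hsp-16.11, hsp-16.48 and hsp-16.49, 93.1% to 100% of the 50-base words recur in the genome. Most reads of that length could not be placed there at 1 site. The hsp-110 promoter was bound in the list of replicate 2 and in the other thresholded list of both replicates.

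Where an element and a peak were both present, they were often apart. The 2 elements of hsp-90 stood 15 and 85 bp upstream of the gene's outermost 5′ end, and the nearer of them was 860 bp from the summit. At hsp-1 the nearest run was 283 bp from the summit and at dnj-13 it was 169 bp. It was 54 bp away at hsp-60 and 17 bp away at F44E5.4 and F44E5.5. Only these last sites had an element inside the peak.

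Peaks also stood past the 3′ ends of chaperone genes, a comparison that was chosen after its values had been seen. A conservative summit lay within 500 bp of the 3′ end of 11 of 68 chaperone genes, 16.18% (8.36 to 27.1), against 260 of 19973 genes, 1.3%. The count was 5 in the list of replicate 1 alone, against 0.486% of all genes, and 5 in that of replicate 2 alone, against 0.741%. Among genes with a promoter summit, a further summit stood at the 3′ end of 6 of 10 chaperone genes, 60% (26.2 to 87.8), against 28 of 535 genes, 5.23% (3.51 to 7.48). The 6 were F44E5.4, F44E5.5, hsp-1, hsp-90, dnj-13 and dnj-5. Without summits in any promoter window or within 500 bp of a small RNA gene (tRNA, snRNA or snoRNA), 5 chaperone genes were left, 7.35% (2.43 to 16.3), against 97 genes, 0.486% (0.394 to 0.592). Those 5 were F44E5.4, F44E5.5, hsp-1, hsp-16.48 and hsp-16.49. In all of these but hsp-1, 73.9% to 100% of the 50-base words of the promoter window recur in the genome. In the 3′ peak searched for each of these 5 genes, none of the 50-base words recurs. What part the promoter repeats have in the count was not tested.

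The strongest of these sites stood 127 bp past F44E5.4, at chrII:11756838-11757121. It had a signal of 124.6, from 37.2 in replicate 1 and 87.5 in replicate 2, a mean of 62.3 ± 35.6 (SD, n = 2), and was in both lists. On the other side of the pair a peak of 60.2 stood 75 bp past F44E5.5, from 38.6 and 28.9, in neither list, with a further one of 42.2 beside it that rests on the same replicate peaks. The Hsp70 pair thus had a peak between the genes and signal past each of its outer ends. In the promoter windows of the pair 73.9% of the 50-base words recur in the genome. None of those in the peak between the genes or in the peak past F44E5.4 does. The part of these repeats in the layout was not tested. Past hsp-1 a peak of 70.04 stood at 138 bp, from 37.5 and 32.3, in neither list, and a weaker one of 41.5 with a score of 840 lay inside the gene, within 500 bp of the small RNA gene F26D10.24.

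hsp-110 and the hsp-16 cluster had a conservative peak past a 3′ end and none in the promoter windows of 1000 bp. The hsp-110 peak, at chrIII:8443600-8443883, had a signal of 103.7, from 30.6 in replicate 1 and 74.9 in replicate 2, and lay 168 bp past the gene, in the promoter window of ufbp-1, which encodes a protein of the UFM1 pathway of the ER. In the hsp-16 cluster a peak of 90.1 at chrV:9088776-9089059 lay between the convergent genes hsp-16.48 and hsp-16.49, at 301 and 362 bp from their ends. The same summit lay 1136 bp upstream of hsp-16.1 and 1159 bp upstream of hsp-16.11, so it fell in their promoters when these were 2000 bp long. It had 33.7 in replicate 1 and 50.2 in replicate 2, a mean of 41.97 ± 11.6 (SD, n = 2), and was in both lists. None of the 50-base words of that peak recurs in the genome, unlike those of the promoters around it. The hsp-16.48 and hsp-16.49 count in the 3′ tally is therefore 1 peak.

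Other 3′ peaks were shared with neighbours. The one 380 bp past dnj-16, a J-domain gene, had a signal of 105.2, from 37.1 and 68.0, and is the promoter peak of xbp-1. Those past dnj-13 (72.5, from 32.3 and 36.5) and hsp-90 (64.6, from 32.8 and 33.6) lay in the promoter windows of F54D5.7 and of C47E8.11 and gasr-8. Those past dnj-5 (77.8, from 47.1 and 33.6) and hsp-70 (64.97, from 37.5 and 31.6) lay within 500 bp of small RNA genes, and 16.6% and 14.5% of their 50-base words recur in the genome. The map of 6 loci draws the peaks of both ends with the genes.

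**Figure D4:**
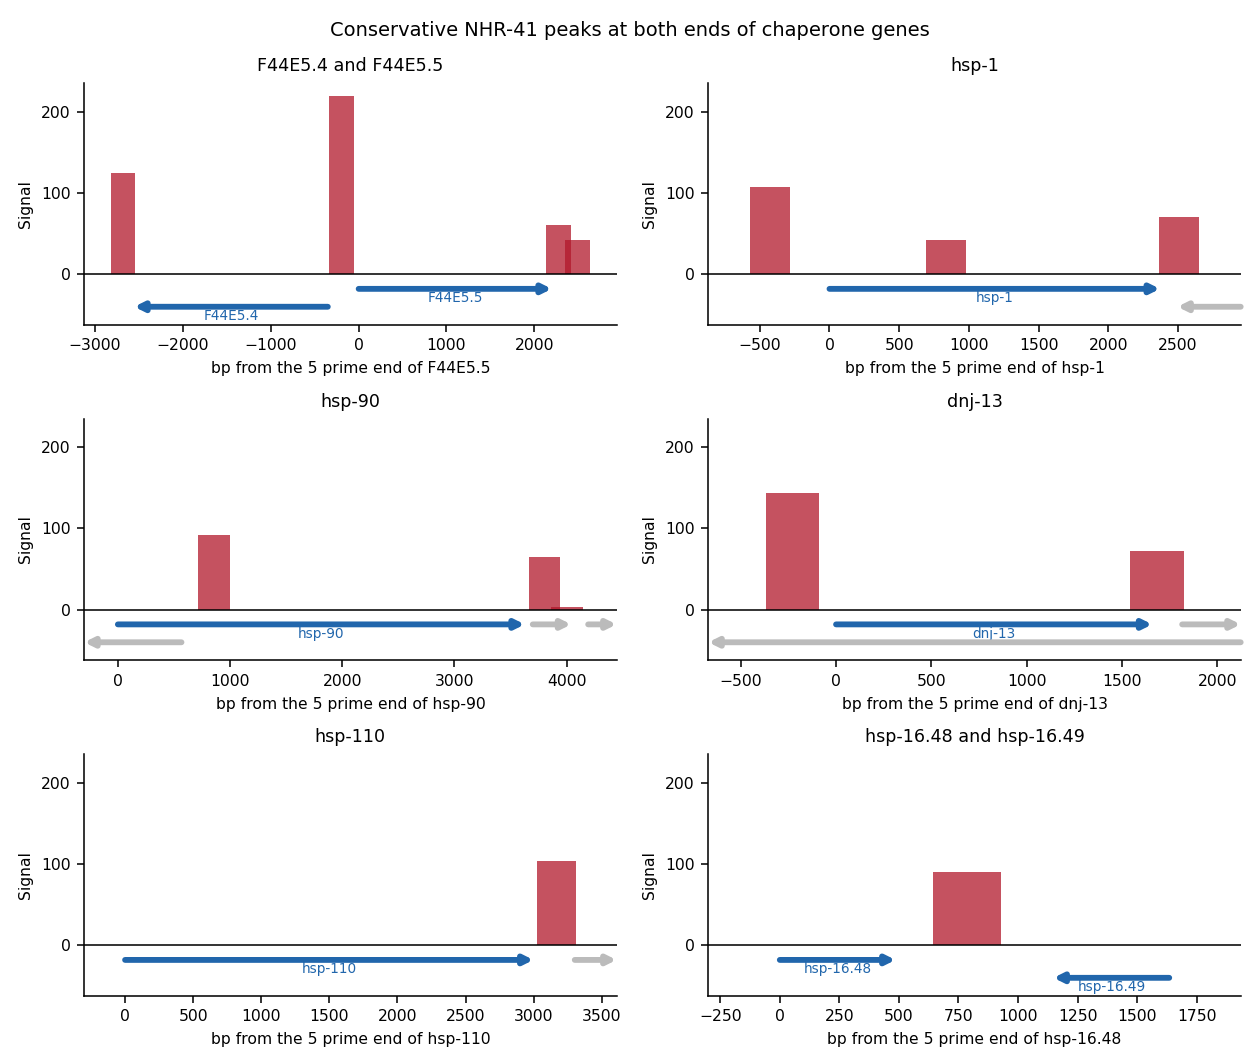
Conservative NHR-41 peaks at 6 chaperone loci, as bars from peak start to peak end (horizontal axis, bp from the 5′ end of the named gene in its direction of transcription) with the peak signal as height (vertical axis, peak caller value, unit not given); blue arrows are chaperone genes and grey arrows other protein-coding genes. F44E5.4 and F44E5.5 have a peak of 219.5 between them and peaks of 124.6 and 60.2 past their outer ends, while hsp-110 and the hsp-16.48 and hsp-16.49 pair have a peak past the 3′ end and none within 1000 bp upstream.

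Regulators and partners of the chaperones were listed by name. Of 39 names, 37 were found in the annotation, and hsf-2 and atf-5 were not matched. In the conservative list 6 of the 37 were bound, 16.22% (6.19 to 32.0), against 2.68% of all genes, and 27 had a ranked peak, 73.0% (55.9 to 86.2), against 48.9%. Of the 6, all but bag-1 act in the ER or in its stress response, but the list itself held many such genes. Others of them, pdi-3, pdi-6, pek-1, ero-1, enpl-1, ire-1, cnx-1, sel-1 and sel-11, were not in the conservative list. Of these, cnx-1, sel-1 and sel-11 had no ranked promoter peak. crt-1, the lectin chaperone calreticulin, had a signal of 141.2, from 48.2 in replicate 1 and 91.4 in replicate 2. xbp-1, the transcription factor that IRE-1 activates by splicing its mRNA under ER stress, had 105.2, from 37.1 and 68.0, with its summit at the 5′ end. atf-6, the other ER stress factor, had 98.65, from 26.3 and 67.7.

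The disulfide isomerase genes pdi-1 and pdi-2 had signals of 90.55, from 40.0 and 47.96, and of 68.1, from 26.9 and 42.1. bag-1, a nucleotide exchange factor of Hsp70, had 89.5, from 30.2 and 58.3. In all 6 of these genes replicate 2 was the higher, and only the crt-1 and xbp-1 peaks were in both replicates' lists. The list of replicate 2 held 8 of the 37 genes, these 6 with pdi-6 and atfs-1, against 1.81% of all genes. That of replicate 1 held 2, against 0.871%. hsf-1, which encodes the heat shock factor, had no ranked promoter peak, and neither had the Hsp90 partners unc-45 and ahsa-1 or the membrane lectin cnx-1. Of other partner genes in the list, cdc-37, sti-1, daf-41 and pph-5 had ranked promoter peaks outside the conservative list, and fkb-6 had none. The cdc-37 peak had a score of 808, near the threshold, and a signal of 51.6, from 30.65 and 30.74 in replicates 1 and 2. enpl-1, the ER Hsp90, had a signal of 33.9 with a score of 74, and ire-1, the ER stress sensor, 31.9 with a score of 155.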

How the data were processed

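NHR-41 ChIP-seq peak lists of 2 biological replicates were used, deposited by the authors on ce11: 1 ranked and 1 thresholded list per replicate, and 3 lists from both replicates (ranked, thresholded and conservative). The score is an IDR score that the authors capped at 1000, with a lowest value of 830 in the thresholded lists. The signal is the deposited peak caller value, of unstated scale. All 1069 conservative peaks recur unchanged in the ranked list. The aligner, peak caller and version numbers were not given in the sources used here. Read depth is unknown. A further 6 columns of per-sample values were not used. Summits were assigned to Ensembl release 115 transcripts on WBcel235 with Python 3.11.15, numpy 2.4.6, pandas 2.3.3 and scipy 1.17.1. The assignment was tested on simulated data. Intervals are exact (Clopper-Pearson) at 95%. No group was compared with another, so no p-value was computed.

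Named genes were all bound members, the strongest unbound member of each family, stress reporters, the 5 scores just under the threshold and bound pathway genes. Others, and the 3′-end comparison, were chosen after their values were seen. Members and lists were chosen with earlier results of these data known. Alternatives were other peak lists, promoter lengths, assignment rules, score minimums and motif windows.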

Additional observations from a re-analysis of the deposited data

How the results depend on the processing

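Of the 10 bound chaperone genes, all remained in the other thresholded list of both replicates, which added hsp-110 for 11 (2.8% of all genes), and without summits near small RNA genes (2.18%). Leaving out 1 replicate gave 6 to 8 bound chaperone genes, against 0.871% to 1.81% of all genes, and 2 to 8 pathway genes against 6. Without replicate 2, cct-8, dnj-20, dnj-5 and hsp-60 were lost, and without replicate 1, dnj-20, dnj-5 and hsp-90 were lost and hsp-110 gained. Each summit given only to its nearest 5′ end left 6 chaperone genes, against 2.21% of all genes, because F44E5.5, cct-8, hsp-60 and hsp-90 share theirs with a nearer start. Promoters of 500 bp gave 8 (1.9% of all genes), without dnj-5 and hsp-60, and those of 2000 bp gave 12 (3.89%), with the small heat shock genes hsp-16.1 and hsp-16.11 gained. The outermost 5′ end alone gave 8 (2.35%), overlap of any part of the peak gave 11 (2.92%), with hsp-16.1 gained, and a score of 1000 gave 9 (1.94%). A score of at least 540 left 13 of the 51 genes with a ranked peak (4.5% of all genes).

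The median signal of the 9 sites was 99.95 in the conservative list and 51.9 to 58.2 in the replicates' own lists, whose scale may differ. Sites with a 2-unit heat shock form fell to 3 with windows of 50 bp to each side and were 6 with 100 bp. The 3′-end count of 11 became 5 in each replicate's own list (0.486% and 0.741% of all genes for replicates 1 and 2), and 5 without summits in promoter windows or near small RNA genes. Alternatives for the 3′-end count and the CCAAT motif were added once the values were known. No paired analysis was possible because there was 1 group.

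Limits are the 2 replicates, the unknown read depth, a signal of unstated scale and the lack of an untagged or input list, so sites found in other immunoprecipitations too could not be set apart. Counts rest on 68 genes and 9 sites.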
